A study of Homo sapiens with 36 samples.

Results

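Human mitochondrial DNA is a small circle that carries its own rRNA, tRNA and mRNA genes, and its transcripts were described here as all genes of the mRNA count table whose symbol begins with MT-. There were 37 such genes among 60591, namely 13 protein-coding genes, 2 rRNA genes and 22 tRNA genes. They were measured in 2 human colorectal cancer cell lines, Caco-2 kept for 21 days under conditions for differentiation and HT-29, so the cell line and the state of the culture cannot be told apart. Cells of each line were incubated for 24 h with 300 µM CoCl2, with 5 µM of an oxyquinoline derivative (OD), or as control in medium with 0.5 µl DMSO per ml, which the labels also call no treatment. The OD was likewise added from a DMSO stock, whereas the labels describe a CoCl2 stock in water. The study's methods add that DMSO was put into the CoCl2 medium as well as the control medium, at a concentration that differs from the one in the labels, and this conflict could not be settled here. Each of the 6 groups had 3 libraries, called biological replicates in the design text, and 18 mRNA libraries of the 36 libraries of the series were used.

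Both strands of mitochondrial DNA are transcribed into long precursors that cover many genes, and most of the mRNAs and rRNAs are released when the tRNAs between them are cut out. The mRNAs encode core subunits of the respiratory chain complexes I, III and IV and of ATP synthase (complex V), and the rRNAs MT-RNR1 and MT-RNR2 form the small and large subunits of the mitochondrial ribosome. Of the 13 mRNAs, 12 lie on the plus strand of the reference, and MT-ND6 lies on the minus strand. CoCl2 and the OD are both used to imitate hypoxia in normal oxygen because they block the oxygen-dependent enzymes that otherwise send hypoxia-inducible factor to degradation. The libraries were made with a kit that selects polyadenylated RNA. Mitochondrial mRNAs carry short poly(A) tails that MT-ND6 mostly lacks, and the rRNAs carry very short ones, so a change in the amount of an RNA and a change in its tail or capture cannot be told apart. Neither can fewer mitochondria or fewer copies of their DNA be told apart from less RNA made per copy.

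Gene order is the frame for the values that follow, and the sequences below were read from the mitochondrial chromosome (chrM) of GRCh38. The 300 bases ahead of the first rRNA gene hold the region where transcripts of both rRNAs and of the plus-strand mRNAs begin. They are shown from chrM:348-647 on the plus strand, with the tRNA gene MT-TF in capitals, and MT-RNR1 (chrM:648-1601) follows directly.
Upstream of MT-RNR1: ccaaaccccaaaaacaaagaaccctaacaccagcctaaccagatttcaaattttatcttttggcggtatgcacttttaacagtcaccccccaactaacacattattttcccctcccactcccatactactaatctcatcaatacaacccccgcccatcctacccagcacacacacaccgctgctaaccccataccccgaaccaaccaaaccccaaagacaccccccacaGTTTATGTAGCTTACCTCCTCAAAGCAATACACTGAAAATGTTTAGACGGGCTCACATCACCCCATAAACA
The junction between MT-RNR2 (chrM:1671-3229) and MT-ND1 (chrM:3307-4262) is shown because it joins an rRNA gene to an mRNA gene, from chrM:3190-3346 on the plus strand with the tRNA gene MT-TL1 in capitals.
MT-RNR2 to MT-ND1: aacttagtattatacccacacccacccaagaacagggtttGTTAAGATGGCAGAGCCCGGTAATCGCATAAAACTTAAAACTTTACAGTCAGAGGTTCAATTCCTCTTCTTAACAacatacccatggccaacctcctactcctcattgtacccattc
The tRNA genes that gave enough counts to test in both lines all lie on the minus strand. They are MT-TP (chrM:15956-16023), MT-TC (chrM:5761-5826) and MT-TY (chrM:5826-5891), written in lower case as transcribed.
MT-TP: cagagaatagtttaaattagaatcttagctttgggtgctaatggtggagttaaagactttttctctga
MT-TC: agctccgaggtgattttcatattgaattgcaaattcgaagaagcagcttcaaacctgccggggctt
MT-TY: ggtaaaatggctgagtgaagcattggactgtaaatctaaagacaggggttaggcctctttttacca
A pair of mRNAs is joined by overlapping reading frames in each of the last segments, where a read cannot be given to one gene alone. The overlap of MT-ATP8 and MT-ATP6 (46 bases) stands in capitals within chrM:8507-8592, and that of MT-ND4L and MT-ND4 (7 bases) within chrM:10740-10786, both on the plus strand.
MT-ATP8 and MT-ATP6: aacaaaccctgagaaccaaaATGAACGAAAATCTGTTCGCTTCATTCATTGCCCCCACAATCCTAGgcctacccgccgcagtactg
MT-ND4L and MT-ND4: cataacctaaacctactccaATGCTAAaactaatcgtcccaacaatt

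The libraries held from 12925719 to 22332639 counts, and 8 of the 37 mitochondrial genes were among the 20 genes with the highest mean count. Counts of the 15 rRNA and mRNA genes ranged from 1435 to 348508 per library. Over all but the lowest-count genes, replicates differed by 1.96 to 12.6 times the sampling variance (chi-square per degree of freedom). The largest values were those of replicate 1 in treated Caco-2. Against replicates 2 and 3 it gave 9.51 and 12.6 with OD and 8.79 and 10.7 with CoCl2. Replicates 2 and 3 of these groups differed from each other by 3.43 and 3.42. The control HT-29 library of replicate 3 stood apart from the others of its group in mitochondrial content, and values with and without it are given below. Epithelial markers (EPCAM, KRT8 and others) were above 3 counts in every group for 7 of 7 genes, with summed levels of 4650 to 7984 counts per 1000000 scaled counts of the library (CPM). Enterocyte markers were present for 6 of 6 genes in Caco-2 and for 4 of 6 in HT-29, where ALPI and APOA4 were at or near 0. Of 7 defining markers of other cell types, 3 or 4 exceeded 3 counts in a group, and their summed level was 17.6 to 39.0 CPM in Caco-2, with the highest values in control, and 2.54 to 7.77 CPM in HT-29. In control Caco-2 that level came mainly from COL1A1 (25.1 CPM) and PECAM1 (8.84 CPM). The samples were cultures of cell lines, and which cells carried these transcripts was not tested.

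Levels of different genes can be compared only per length, as RPKM, the CPM divided by the gene's length in kilobases. Because the libraries were selected for poly(A) tails, RPKM ranks the RNA that was captured and not the amounts in the cell. In control Caco-2 cells, the highest was MT-CO1, the catalytic subunit of cytochrome c oxidase, at 9336 ± 592 RPKM (SD, n = 3). MT-ND4 of complex I followed at 7568 ± 687 RPKM. MT-CO3 and MT-CO2, the other mitochondrially encoded subunits of complex IV, stood at 6445 ± 382 and 6106 ± 402 RPKM and overlapped each other. MT-RNR2 was the seventh of the 15 genes at 3871 ± 179 RPKM, overlapping its neighbours MT-ND4L (3921 ± 396 RPKM) and MT-ND2 (3446 ± 306 RPKM). The lowest were MT-ATP8 at 1136 ± 111 RPKM and MT-RNR1 at 461 ± 86.5 RPKM. MT-ATP8 (207 bases) and MT-ND4L (297 bases) are short and overlap MT-ATP6 and MT-ND4. Their RPKM may therefore also depend on how shared reads were counted, and a gap within a pair is no measure of different amounts.

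The order differed in control HT-29 cells, where MT-CO2 (10928 ± 1575 RPKM) and MT-CO3 (10591 ± 869 RPKM) led and overlapped each other. MT-CO1 (7691 ± 614 RPKM) came next and overlapped MT-ATP6 of ATP synthase (6793 ± 936 RPKM). MT-RNR1 was again last at 451 ± 10.0 RPKM. After OD in HT-29, MT-RNR2 was the highest of all at 9301 ± 532 RPKM, above MT-CO2 at 7575 ± 192 RPKM and with no overlap between their libraries. MT-RNR1 was no longer last there: at 993 ± 43.6 RPKM it overlapped MT-ND1 (1021 ± 28.7 RPKM) and MT-ATP8 (993 ± 87.1 RPKM), and MT-ND6 was last at 858 ± 17.1 RPKM. MT-RNR1 gave far lower RPKM than MT-RNR2 in all groups. The ratio per length ranged from 5.70 ± 0.489 in Caco-2 with OD to 11.2 ± 0.333 in HT-29 with CoCl2. A difference in capture and a difference in amount cannot be told apart here.

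**Figure D1:**
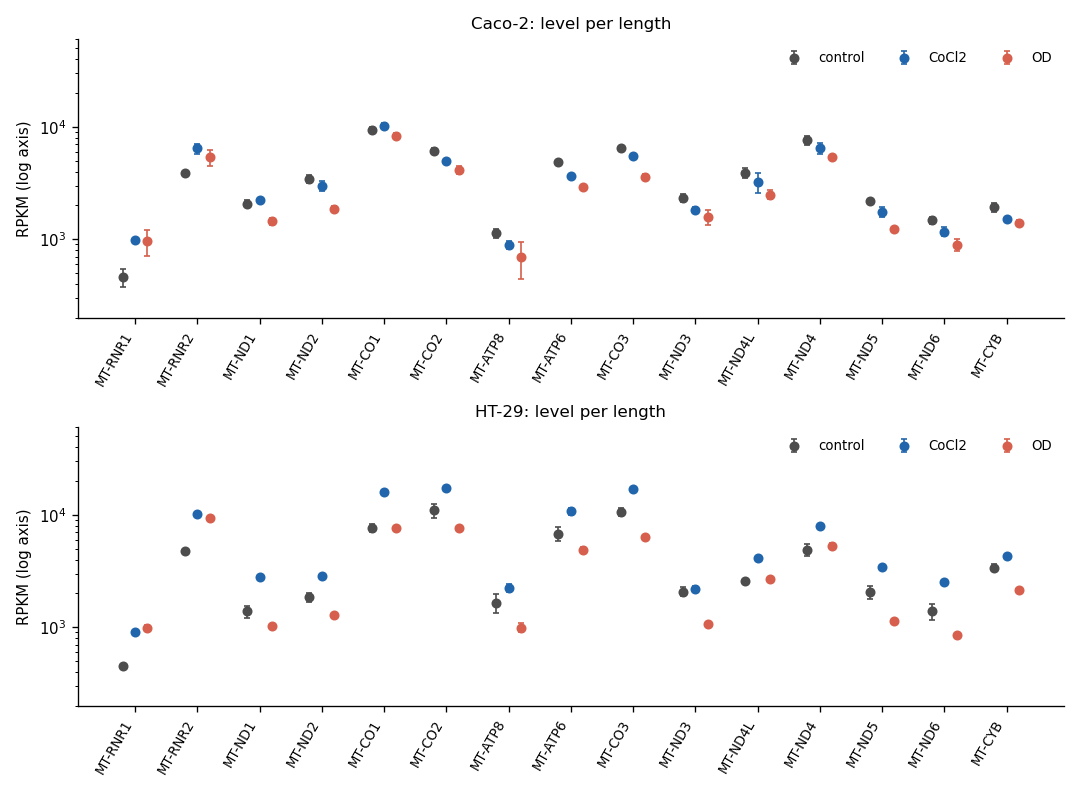
Level per length (RPKM, log axis) of the 2 rRNAs and 13 mRNAs in the order of their genes on the mitochondrial circle, for Caco-2 (top) and HT-29 (bottom). Points are means and bars SD of 3 libraries. MT-CO1 led in control Caco-2 (9336 RPKM) and MT-CO2 in control HT-29 (10928 RPKM), and in HT-29 with OD the highest point is MT-RNR2 (9301 RPKM).

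All mitochondrial transcripts together took 6.19, 6.45 and 6.91% of the counts in the control Caco-2 libraries. The share was 4.83, 5.27 and 5.55% after CoCl2 and 4.84, 4.48 and 4.57% after OD, so every treated Caco-2 library lay below every control library. In HT-29 the control libraries held 7.63, 7.47 and 6.41%, the CoCl2 libraries 7.89, 8.05 and 8.33%, and the OD libraries 6.30, 5.97 and 6.11%. CoCl2 libraries of HT-29 were thus all above the controls and OD libraries all below them, although replicate 3 of the control was only slightly above the highest OD library. The mean share was 6.52 ± 0.364, 5.22 ± 0.363 and 4.63 ± 0.187% in control, CoCl2 and OD Caco-2 cells and 7.17 ± 0.661, 8.09 ± 0.224 and 6.13 ± 0.163% in the same groups of HT-29. Without replicate 3, the HT-29 control mean was 7.55%. These shares are given as a description, with no test.

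The mRNAs and the rRNAs are separated in these totals. The mRNA share of the library was 5.79 ± 0.365% in control Caco-2, 4.23 ± 0.275% with CoCl2 and 3.69 ± 0.109% with OD, while the rRNA share was 0.721 ± 0.0346, 0.979 ± 0.0901 and 0.930 ± 0.130%. In HT-29 the mRNA share was 6.24 ± 0.664, 6.80 ± 0.230 and 4.45 ± 0.0914%, and the rRNA share was 0.928 ± 0.00317, 1.29 ± 0.0142 and 1.68 ± 0.0719%. No treated library overlapped a control library of its line in rRNA share.

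**Figure D2:**
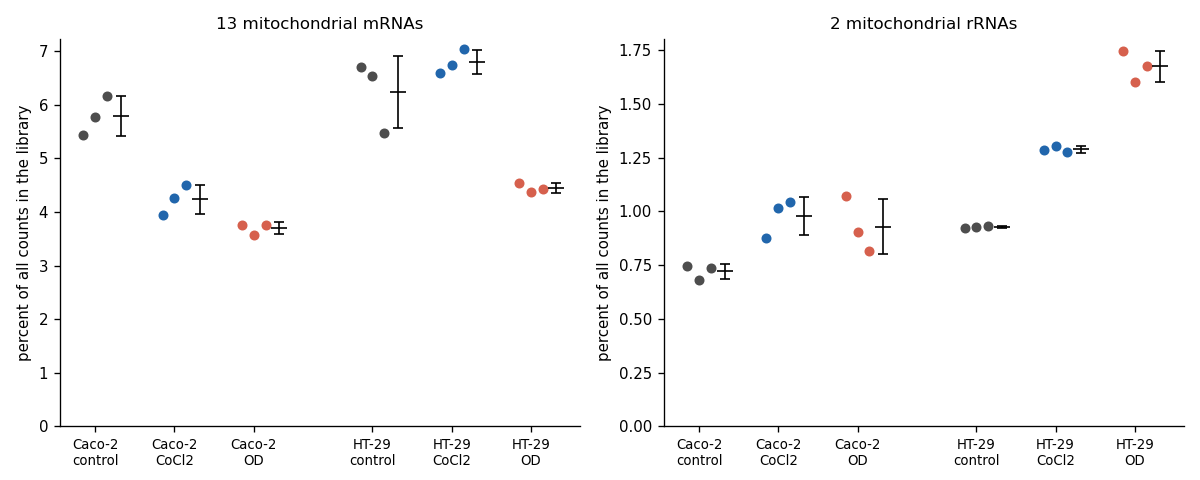
Percent of all counts of a library that fell on the 13 mRNAs (left) and the 2 rRNAs (right), with 1 point per library and the mean ± SD of 3 libraries beside them. The rRNA share lies higher in both treatments of both lines, up to 1.68% in HT-29 with OD. The mRNA share lies lower in all treated groups except HT-29 with CoCl2, where it overlaps the control.

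As a fraction of the mitochondrial counts alone, which does not depend on how libraries are scaled to each other, rRNA made up 12.05, 10.6 and 10.7% in the control Caco-2 libraries. It made up 18.2, 19.3 and 18.9% with CoCl2 and 22.1, 20.2 and 17.8% with OD. In HT-29 the fraction was 12.1, 12.4 and 14.5% in control, 16.3, 16.2 and 15.3% with CoCl2, and 27.7, 26.8 and 27.4% with OD. Each treatment was therefore above control in all 3 libraries of both lines. CoCl2 and OD overlapped in Caco-2, while in HT-29 the OD libraries were far above those with CoCl2.

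**Figure D3:**
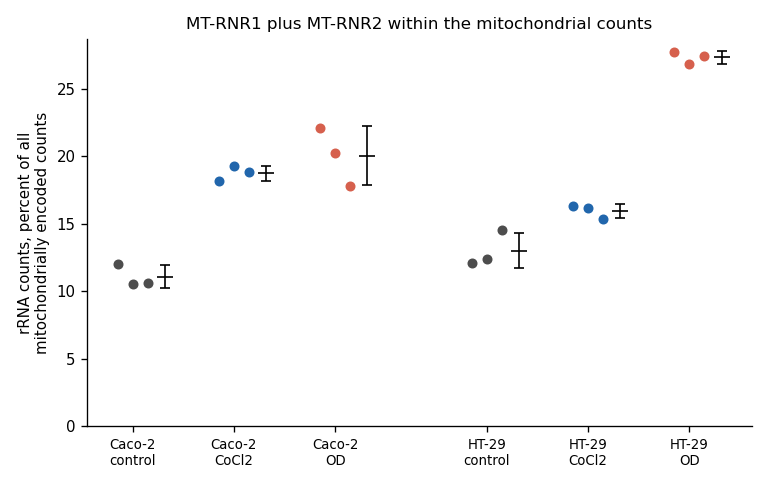
MT-RNR1 plus MT-RNR2 as a percent of all counts on mitochondrially encoded genes, with 1 point per library and the mean ± SD of 3 libraries beside them. The controls lie between 10.6 and 14.5%, and HT-29 cells with OD reach 27.3 ± 0.459%.

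Each gene was then tested with edgeR's quasi-likelihood test after TMM scaling (a scaling that balances the bulk of all genes between libraries), and a gene passed when its false discovery rate (FDR) over all genes tested was under 0.05. Of the 37 genes, 19 passed the filter on low counts in Caco-2 and 18 in HT-29. The comparisons with control share the control libraries within a line. CoCl2 raised 3 and lowered 11 mitochondrial genes in Caco-2, where 31.6% of all 16034 genes tested were higher and 33.1% lower. Its 14 calls became 7 with limma, 8 without replicate 2 of each group and 9 without replicate 3 of each group or without control replicate 3 alone. OD raised 2 and lowered 14 in Caco-2, beside 25.7% and 24.7% of all genes. In HT-29, CoCl2 raised 17 and lowered 0 of the 18, and the 0 held at an unadjusted p under 0.05 and with DESeq2 and limma, beside 40.7% and 42.2% of the 15812 genes tested, and OD raised 2 and lowered 12, beside 34.7% and 34.0%. At the study's own limit, which adds an absolute log2 fold change above 1, 2, 1, 5 and 2 genes passed in these comparisons, beside 23.4%, 11.7%, 41.3% and 17.1% of all genes.

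The signs depended on the scaling. Scaling the libraries by their total alone shifted the all-gene median of the CoCl2 response by -0.32 (Caco-2) and -0.63 (HT-29) and that of the OD response by -0.15 (Caco-2) and -0.14 (HT-29). It was shifted by -0.17 and -0.50 for CoCl2 against OD in Caco-2 and HT-29, and -0.20, 0.04 and 0.01 for the difference between lines in the CoCl2 response, in the OD response and between controls. The CoCl2 response of HT-29 was the comparison most affected, with 7 genes higher and 3 lower by library size alone. Shares of all genes are given for the TMM scale only and are no background for counts by library size alone. Since the scaling moves all genes by nearly the same amount, the position of a gene against the all-gene median hardly depends on it and is no check of the signs. By that measure all 13 mRNAs and both rRNAs lay above the median in HT-29 with CoCl2. In Caco-2 with CoCl2, 11 of 13 mRNAs lay below the all-gene median on the library-size scale, with OD 13 of 13, and in HT-29 with OD 11 of 13.

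**Figure D4:**
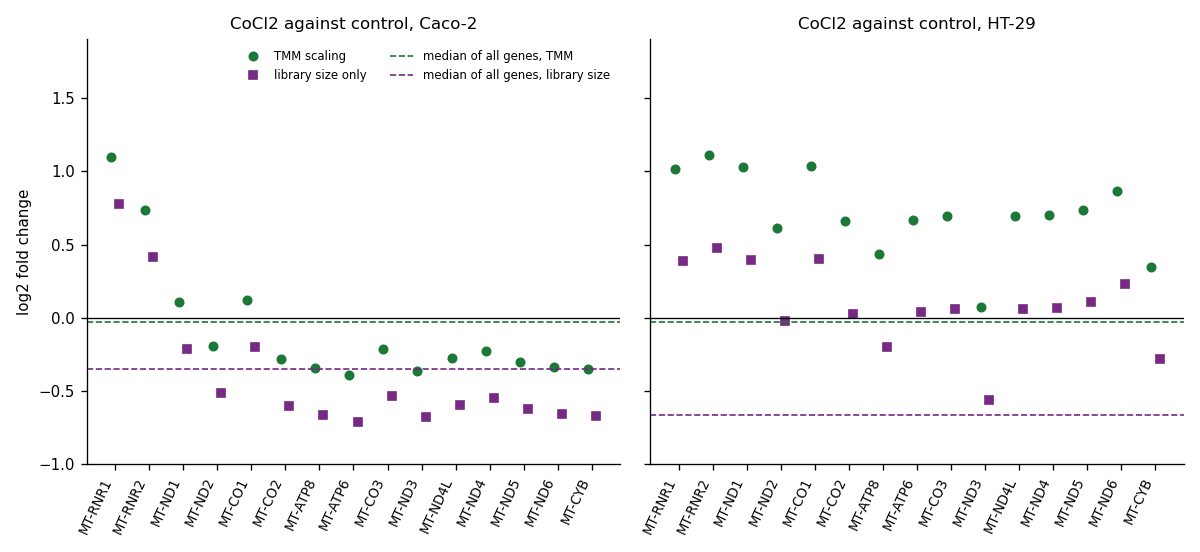
Log2 fold change of CoCl2 against control for the 15 rRNA and mRNA genes under TMM scaling (circles) and library size alone (squares), with the median of all genes under each as dashed lines. In HT-29 the signs of MT-ND2, MT-ATP8, MT-ND3 and MT-CYB are positive under TMM and negative under library size alone, while both rRNAs are above 0 under both scalings in both lines.

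Both rRNAs rose in each of the 4 comparisons with control, on the TMM scale and by library size alone. MT-RNR1, the RNA of the small ribosomal subunit, was at 535, 388 and 396 CPM in the control Caco-2 libraries, at 949, 944 and 933 CPM with CoCl2 and at 1175, 823 and 744 CPM with OD. In HT-29 it was at 440, 429 and 421 CPM in control, at 883, 859 and 870 CPM with CoCl2 and at 995, 916 and 932 CPM with OD. Every treated library was above every control library of its line. For CoCl2 the log2 fold change of MT-RNR1 was 1.10 (SE 0.12, FDR 3.84e-08) in Caco-2 cells and 1.02 (SE 0.04, FDR 1.02e-17) in HT-29. Under OD the corresponding values were 1.06 (SE 0.12, FDR 1.72e-07) and 1.14 (SE 0.04, FDR 4.61e-18).

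MT-RNR2, the RNA of the large subunit, was at 6103, 5728 and 6274 CPM in control Caco-2, at 8897, 10288 and 10924 CPM with CoCl2 and at 9863, 8105 and 7221 CPM with OD. In HT-29 the values were 7274, 7393 and 7384 CPM in control, 15737, 16203 and 15696 CPM with CoCl2 and 15306, 13650 and 14545 CPM with OD. Again no treated library overlapped the controls. Its log2 fold change was 0.73 (SE 0.10, FDR 4.46e-07) and 0.48 (SE 0.10, FDR 0.000239) in Caco-2 and 1.11 (SE 0.04, FDR 5.29e-19) and 0.98 (SE 0.04, FDR 3.90e-17) in HT-29. By library size alone, the 8 log2 fold changes of the rRNAs ranged from 0.32 to 1.00 and all passed.

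The mRNAs went down in Caco-2 with both agents. CoCl2 lowered 11 of 13 (median log2 fold change of the 13 -0.28, beside -0.03 for all genes), and OD lowered 12 of 13 (median -0.65, beside -0.02). Under CoCl2 the falls were small, from -0.20 for MT-ND2 (FDR 0.0461) to -0.39 for MT-ATP6 (FDR 4.83e-05), and MT-ND2, MT-ND4L and MT-ND4 overlapped between groups. The exceptions were MT-ND1 (0.11, SE 0.08, FDR 0.231), which lies just downstream of MT-RNR2, and MT-CO1 (0.12, SE 0.08, FDR 0.177), and by library size alone both were lower and passed, at -0.21 and -0.20. OD gave larger falls, led by MT-ND2 (-0.88, FDR 6.50e-09), MT-CO3 (-0.84, FDR 2.08e-09) and MT-ND5 (-0.81, FDR 1.5e-08), of which the first and the last are membrane subunits of complex I. MT-CO1 was again the exception at -0.17 (SE 0.08, FDR 0.0775), and by library size alone it was lower and passed, at -0.32 (FDR 0.000285).

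HT-29 cells showed opposite signs for the 2 agents under TMM scaling, and by library size alone CoCl2 left 3 mRNAs higher and 3 lower. CoCl2 raised 12 of 13 mRNAs on the TMM scale (median 0.69, beside -0.03 for all genes), and OD lowered 10 of 13 (median -0.54, beside 0.01). MT-CO1 was at 12420, 12392 and 10765 CPM in control, at 23444, 24098 and 25473 CPM with CoCl2 and at 11812, 11286 and 11872 CPM with OD. Its level with CoCl2 was 2.05 times that in control (log2 fold change 1.04, SE 0.05, FDR 5.98e-17), whereas the OD and control libraries overlapped (-0.02, SE 0.05, FDR 0.661). By library size alone MT-CO1 was lower with OD and passed, at -0.16 (FDR 0.00225). MT-ND1 rose next to it (1.03, SE 0.06, FDR 7.50e-15), and both were also higher by library size alone (0.40 and 0.39). The smallest rises were those of MT-CYB, the complex III subunit (0.35, SE 0.05, FDR 1.70e-07), and of MT-ATP8 (0.43, SE 0.09, FDR 6.06e-05), and by library size alone both were lower and passed, at -0.28 and -0.20.

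MT-ND3, a small subunit of complex I, had the lowest CoCl2 value among the mRNAs of HT-29. It was at 754, 757 and 643 CPM in control and at 752, 798 and 710 CPM with CoCl2, and these groups overlapped (difference of 0.07, SE 0.06, FDR 0.245), but by library size alone the difference turned to -0.56 and passed (FDR 3.4e-10). With OD it was at 360, 386 and 353 CPM, and it fell by 0.97 on the log2 scale (SE 0.06, FDR 3.05e-14), the largest fall among the mRNAs in that comparison. MT-ND5 (-0.83, FDR 2.65e-12) and MT-CO3 (-0.75, FDR 4.06e-13) followed. By contrast MT-ND4 was at 7202, 7143 and 5751 CPM in control and at 7630, 6800 and 7351 CPM with OD, with overlapping groups (0.12, SE 0.06, FDR 0.0895), and its partner MT-ND4L gave 0.06 (SE 0.05, FDR 0.301). Without replicate 3 of the HT-29 control, MT-ND4 gave 0.02, and the counts of genes passing were 17 higher and 0 lower for CoCl2 and 2 higher and 13 lower for OD.

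MT-ND6, encoded on the other strand from the remaining mRNAs, moved with them. It was at 719, 778 and 828 CPM in control Caco-2, at 564, 607 and 673 CPM with CoCl2 and at 533, 425 and 457 CPM with OD. In HT-29 it was at 805, 790 and 595 CPM in control, at 1286, 1364 and 1333 CPM with CoCl2 and at 455, 457 and 440 CPM with OD. The treated libraries were outside the range of the controls in every case. Under CoCl2 its log2 fold change was -0.33 in Caco-2 (FDR 0.00158) but 0.86 in HT-29 (FDR 6.85e-12), and under OD it was -0.72 (FDR 2.54e-07) and -0.70 (FDR 1.33e-09). As a share of the mRNA counts, MT-ND6 held 1.49 ± 0.0113, 1.29 ± 0.0241 and 1.28 ± 0.0874% in control, CoCl2 and OD Caco-2 and 1.39 ± 0.0811, 1.504 ± 0.0442 and 1.10 ± 0.0447% in HT-29.

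**Figure D5:**
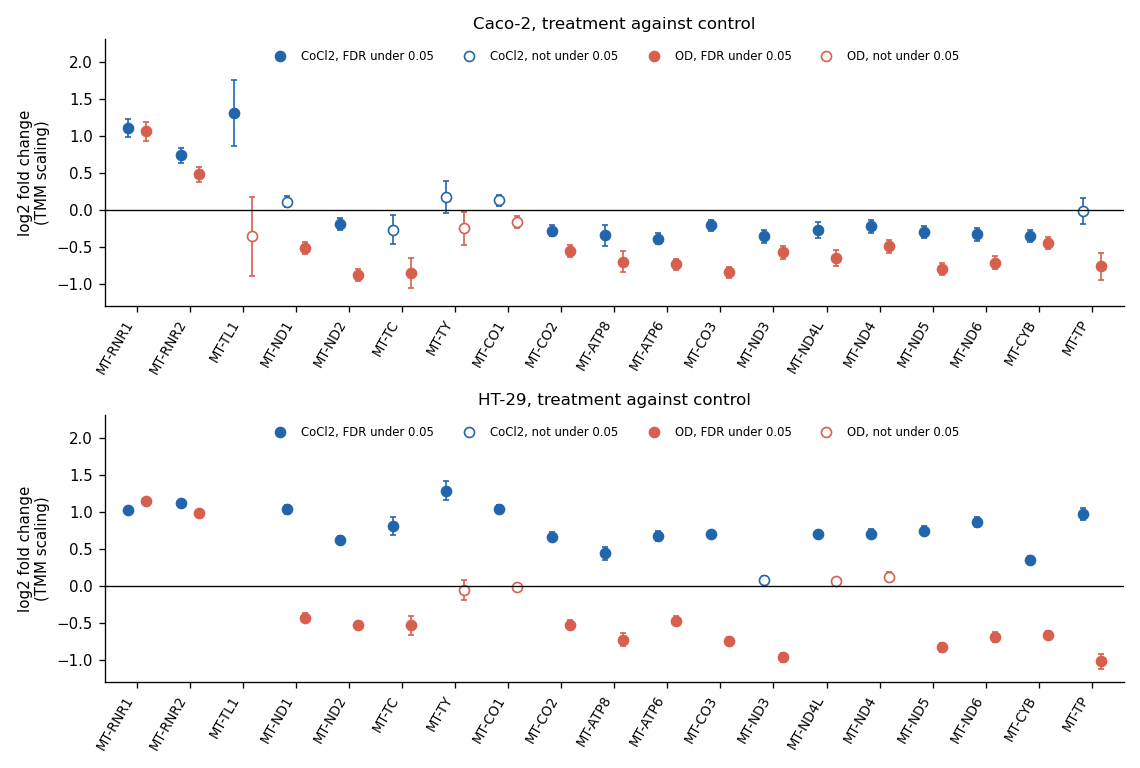
Log2 fold change against control (TMM scaling) of each mitochondrial gene that passed the filter, in gene order, for CoCl2 and OD in Caco-2 (top) and HT-29 (bottom). Bars are standard errors, filled points had an FDR under 0.05 and open points did not. MT-RNR1 and MT-RNR2 lie above 0 in all 4 comparisons, and mRNAs lie above 0 mainly in HT-29 with CoCl2, where MT-ND2, MT-ATP8, MT-ND3 and MT-CYB turn negative by library size alone, as do MT-ND1 and MT-CO1 in Caco-2 with CoCl2.

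Grouped by complex, the 7 complex I mRNAs held 43.6 ± 0.463% of the mRNA counts in control Caco-2, 41.2 ± 1.34% with CoCl2 and 39.96 ± 1.08% with OD. The 3 complex IV mRNAs held 45.4 ± 0.449, 49.5 ± 1.16 and 50.0 ± 1.13%, so their part was larger in both treatments. In HT-29, complex I held 30.3 ± 0.423, 29.5 ± 0.236 and 32.3 ± 0.0823% and complex IV 52.9 ± 0.502, 56.1 ± 0.182 and 53.1 ± 0.349%. Within complex IV, MT-CO2 (-0.28, FDR 0.00271) and MT-CO3 (-0.21, FDR 0.0165) fell in Caco-2 with CoCl2, where MT-CO1 did not pass.

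Among the 22 tRNA genes, 8 had 0 counts in all 18 libraries, and 10 more had at most 7 counts in a library. A count of 0 allows up to 0.134 to 0.232 CPM per library, here by unscaled library totals (3 counts, counting error only). The remaining 4 were MT-TL1, MT-TC, MT-TY and MT-TP. Whether their reads came from mature tRNAs or from longer precursors cannot be told from the counts. MT-TP was at 10.6, 9.73 and 10.5 CPM in control Caco-2, at 6.83, 11.7 and 11.6 CPM with CoCl2 and at 7.53, 5.46 and 5.15 CPM with OD. In HT-29 it was at 11.9, 14.4 and 13.6 CPM in control, at 24.1, 28.0 and 26.1 CPM with CoCl2 and at 6.73, 6.57 and 6.39 CPM with OD. It fell with OD in both lines (-0.77, FDR 0.00121 in Caco-2 and -1.03, FDR 1.25e-09 in HT-29), rose with CoCl2 in HT-29 (0.97, FDR 6.78e-11) and overlapped the controls in Caco-2 with CoCl2 (-0.02, FDR 0.930).

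MT-TC fell with OD in Caco-2 (-0.86, FDR 0.00101) and HT-29 (-0.53, FDR 0.000684) and rose with CoCl2 in HT-29 (0.80, FDR 6.64e-07), which by library size alone was 0.17 and did not pass. MT-TY rose with CoCl2 in HT-29 (1.28, FDR 4.05e-10) and passed in no other comparison with control. MT-TL1, between MT-RNR2 and MT-ND1, rose in Caco-2 with CoCl2 (1.30, SE 0.45, FDR 0.0134), but on 3, 14 and 18 counts against 12, 29 and 45, with overlapping CPM, and by library size alone it did not pass (0.98, FDR 0.0638). MT-TC and MT-TY share a base at their border.

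CoCl2 and OD were compared with each other within each line. In Caco-2, 16 mitochondrial genes were higher with CoCl2 than with OD and 0 were lower (0 also at an unadjusted p under 0.05 and with DESeq2 and limma), beside 24.4% and 25.2% of all genes, and 1 gene (MT-TL1) exceeded 2-fold, beside 11.7%. The count was 14 under DESeq2, 8 by library size alone, 7 with limma, 6 without replicate 2 of each group and 8 without replicate 3 of each group. MT-ND2 had the largest of these differences among the mRNAs (0.69, SE 0.08, FDR 3.44e-07), ahead of MT-CO3 (0.63, SE 0.08, FDR 2.22e-07) and MT-ND1 (0.62, SE 0.08, FDR 3.54e-07). MT-RNR1 was close to 0 (0.04, SE 0.12, FDR 0.791).

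In HT-29, 17 genes were higher with CoCl2 than with OD and 1 was lower, beside 37.1% and 40.6% of all genes, and 14 exceeded 2-fold, beside 29.9%. By library size alone 15 were higher and 2 were lower, the latter being both rRNAs. The median of the 13 mRNAs was 1.15 on the TMM scale and 0.65 by library size alone. MT-TP (1.99, SE 0.10, FDR 3.24e-16), MT-ND5 (1.57, SE 0.06, FDR 2.63e-18) and MT-ND6 (1.56, SE 0.07, FDR 5.71e-17) were the furthest apart. The mRNAs least apart were MT-ND4 (0.59, SE 0.06) and MT-ND4L (0.63, SE 0.05). On the TMM scale the gene that was lower was MT-RNR1, at -0.12 (SE 0.04, FDR 0.0119). MT-RNR2 was slightly higher there at 0.13 (SE 0.04, FDR 0.00569) and turned to -0.37 by library size alone.

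Whether the lines responded differently was tested as an interaction over all 18 libraries, as the log2 fold change in HT-29 minus that in Caco-2. For CoCl2, 17 genes had a larger value in HT-29 and 0 a smaller one (0 also at an unadjusted p under 0.05 and with DESeq2), beside 21.1% and 28.6% of 17921 genes, and 1 exceeded 2-fold, beside 21.6%. All 13 mRNAs were among them (median 0.82), led by MT-ND6 (1.09, SE 0.12, FDR 2.20e-09), which fell in Caco-2 and rose in HT-29. MT-RNR1 was not (-0.19, SE 0.15, FDR 0.304). By library size alone 15 were larger and 1 was smaller, and the mRNA that no longer passed was MT-ND3 (0.12). Without replicate 3 of the HT-29 control it was 15 larger and 0 smaller.

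For OD the interaction passed for 4 genes that were larger in HT-29 and 1 that was smaller, beside 20.9% and 22.0% of all genes, and 0 of the 5 beyond 2-fold, beside 15.2%. The larger ones were MT-ND4L (0.69, SE 0.13, FDR 4.57e-05), MT-ND4 (0.59, SE 0.11, FDR 5.64e-05), MT-RNR2 (0.49, SE 0.11, FDR 0.000668) and MT-ND2 (0.33, SE 0.10, FDR 0.0104). MT-ND4L and MT-ND4, neighbours with overlapping frames, fell in Caco-2 (-0.65 and -0.49) and did not pass in HT-29. MT-ND3 was the one that fell more in HT-29 (-0.41, SE 0.11, FDR 0.00375).

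Between the control cells of the lines, 7 mitochondrial genes were higher in HT-29 and 6 lower out of 19, which is no larger a share than the 39.5% and 39.6% of all genes. Only MT-TL1 was beyond 2-fold, beside 45.8% of all genes. MT-CO2 (0.93, SE 0.08, FDR 3.97e-13), MT-CYB (0.91, SE 0.07, FDR 6.03e-14) and MT-CO3 (0.81, SE 0.07, FDR 4.35e-13) were higher in HT-29, together with MT-ATP8, MT-ATP6, MT-TP and MT-RNR2. MT-ND2 (-0.80, SE 0.07, FDR 8.21e-12), MT-ND4 (-0.55, SE 0.08, FDR 2.02e-07), MT-ND4L (-0.53, SE 0.09, FDR 4.27e-06), MT-ND1 (-0.50, SE 0.07, FDR 1.59e-07) and MT-CO1 (-0.19, SE 0.07, FDR 0.0113) were lower. MT-TL1 was at -2.21 (SE 0.65), on at most 5 counts in an HT-29 control library. MT-ND5 (FDR 0.983) and MT-ND6 (FDR 0.991) were at nearly the same CPM in both lines. Scaled over all 18 libraries, unlike the per-line CPM given elsewhere, they were at 3865 ± 487 and 763 ± 116 in HT-29. In Caco-2 they were at 3870 ± 242 and 761.8 ± 54.6 on the same scale.

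Nuclear copies of mitochondrial DNA can take up reads of these genes or lend reads to them. The table held 408 such pseudogenes, which together took 0.0411 to 0.0887% of the counts as group means. MTATP6P1, a near copy of part of the mitochondrial genome, changed by -0.34 and -0.71 in Caco-2 (CoCl2, then OD) and by 0.71 and -0.39 in HT-29 (same order), and all passed. MTND2P28 changed by -0.48, -1.17, 0.53 and -0.75, also passing in all. MTCO1P12 passed only in HT-29, at 1.55 for CoCl2 (FDR 2.70e-09) and at 0.61 for OD (FDR 0.00313). It was at 0.01 (FDR 0.950) and -0.37 (FDR 0.0819) in Caco-2. Its HT-29 control libraries were widely spread, at 10.4 ± 5.25 CPM on 116 to 437 counts, beside 32.1 ± 2.82 CPM with CoCl2 and 16.7 ± 0.977 CPM with OD. How many reads of these copies belong to the mitochondrial genes was not tested.

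Nuclear genes that act on mitochondrial DNA and RNA were listed by role, and the shares of all genes given above (31.6% higher and 33.1% lower with CoCl2 and 25.7% and 24.7% with OD in Caco-2, 40.7% and 42.2% with CoCl2 and 34.7% and 34.0% with OD in HT-29) are the background of each count. POLRMT, the mitochondrial RNA polymerase, rose with CoCl2 in Caco-2 (0.38, from 49.6 to 64.5 CPM) and with both agents in HT-29 (0.85 under CoCl2, 0.45 under OD), while it was at 0.04 (FDR 0.795) in Caco-2 with OD. Its CoCl2 values by library size alone were 0.06 in Caco-2, where the call was lost, and 0.22 in HT-29. TFAM, which packages mitochondrial DNA and starts its transcription, fell with CoCl2 in Caco-2 (-0.36, FDR 0.0016) and in HT-29 under both CoCl2 (-0.74) and OD (-1.19), from 98.2 CPM in control to 58.5 and 42.9 CPM. MTERF2, of the transcription termination factor family, fell in Caco-2 with both agents (-1.57 and -0.59) and in HT-29 with CoCl2 (-1.42). Of the 11 transcription genes, 2 rose and 3 fell with CoCl2 and 3 fell with OD in Caco-2, and 1 rose and 7 fell with each agent in HT-29. With library size alone, 7 and 5 fell in Caco-2, and in HT-29 1 rose and 10 fell with CoCl2 and 1 rose and 8 fell with OD. Of the 11 replication genes, 1 rose and 4 fell and 2 rose and 5 fell in Caco-2, and 2 rose and 8 fell and 2 rose and 6 fell in HT-29, in the same order. On the library-size scale 9 fell with CoCl2 in Caco-2, 2 rose and 7 fell with OD, and in HT-29 1 rose and 10 fell and 1 rose and 7 fell. TWNK, the replicative helicase, was among those that fell in HT-29 (-1.61 under CoCl2, -1.14 under OD).

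Of 21 processing genes tested, 9 rose and 6 fell with CoCl2 and 1 rose and 11 fell with OD in Caco-2. In HT-29, 8 rose and 8 fell with CoCl2 and 3 rose and 13 fell with OD. Scaled by library size alone, these became 2 and 9 and, with OD, 13 that fell in Caco-2, and 2 and 16 and 1 and 16 in HT-29. ELAC2, which cuts the 3′ end of mitochondrial tRNAs out of the precursor, rose with CoCl2 in both lines (0.49 and 0.96) and fell with OD in both (-0.32 and -0.63), and on the library-size scale the rises were 0.17 and 0.33. MRM1, a methyltransferase of the large rRNA, fell in all 4 comparisons (-2.001, -1.03, -3.35 and -0.82). Of the 12 genes for RNA stability and decay, 5 rose and 5 fell, 2 rose and 5 fell, 4 rose and 5 fell, and 8 fell, in the same order of comparisons (3 and 7, 1 and 7, 3 and 9, and 10 that fell by library size alone). LRPPRC, which binds and stabilises mitochondrial mRNAs, fell in HT-29 with OD (-0.49, FDR 1.31e-09) and passed in no other on the TMM scale. Its partner SLIRP fell in 3 comparisons (-0.59 for CoCl2 in Caco-2, and in HT-29 -0.39 for CoCl2 and -0.50 for OD).

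Of the regulators of mitochondrial biogenesis, 3 rose and 2 fell with CoCl2 and 5 rose with OD among 7 tested in Caco-2, and 2 rose and 3 fell and 3 rose and 4 fell among 8 in HT-29. On the library-size scale these were 2 and 3, 2 that rose, 7 that fell, and 3 and 4. In a list of respiratory-chain genes linked to hypoxia, 2 of 3 tested rose with each agent in Caco-2 (HIGD1A and LONP1). In HT-29, 3 of 4 rose with each agent (COX4I1, LONP1 and NDUFA4L2), and 1 (HIGD1A) fell with OD. By library size alone 1 also fell with CoCl2 in each line. COX4I1, at 0.77 under CoCl2 and 0.28 under OD in HT-29, is also counted among the complex IV subunits below. LONP1, a mitochondrial protease, rose in all 4 comparisons (0.70, 0.47, 1.38 and 0.62). NDUFA4L2, a hypoxia-induced relative of a complex IV subunit, rose in HT-29 (2.63 under CoCl2, 1.55 under OD). In Caco-2 it did not pass the filter on low counts and was not tested. Of 72 nuclear-encoded subunits of complexes I, III, IV and V, 15 rose and 25 fell with CoCl2 and 13 rose and 11 fell with OD in Caco-2, and 52 rose and 9 fell with CoCl2 and 12 rose and 35 fell with OD in HT-29. Under library size alone the counts became 2 and 51, 4 and 25, 10 and 45, and 4 and 45, in that order. Relative to the all-gene median on that scale, the median of the 72 was at -0.04, 0.08, 0.33 and -0.09, in the same order. No nuclear list was compared with mitochondrial genes by a test.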

How the data were processed

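The data were 18 mRNA libraries of 2 cell lines. The libraries were made with the Illumina stranded mRNA kit and read single-end on a NextSeq. Per the submitters' notes and the study's methods, the authors trimmed with cutadapt 2.10, aligned with STAR 2.7.5b to GRCh38.p13 and counted over GENCODE 34, and the counter and its strand setting are not given in the sources used here, so reads of overlapping genes on opposite strands may not be separated. The deposited values were counts per gene, used as deposited. The deposited log2 values, which the authors made per line as log2(RPKM + 1) with edgeR, entered only an alternative and hold 18 of the mitochondrial genes. miRNA libraries were not analysed here.

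Groups came from the labels. Genes were filtered per line with filterByExpr, scaled by TMM and tested with edgeR 4.0.16 (quasi-likelihood F test, R 4.3.3) over the 9 libraries of a line, or over all 18 for differences between lines, with Benjamini-Hochberg adjustment over all genes tested and a threshold of 0.05. The study itself added an absolute log2 fold change above 1. SE is the log2 fold change divided by the square root of F. RPKM used the annotated lengths. Where separate cultures are not shown by the labels, p-values measure only the spread between these libraries. The genes named are all mitochondrial genes that passed the filter, plus examples from nuclear lists. The members and lists were chosen with earlier results of these data known. The fit was tried on simulated data for CoCl2 against control in Caco-2, with few genes changed and rises and falls balanced. That setting cannot show how the scaling behaves where many genes change. Alternatives were library-size and RLE scaling, scaling on nuclear genes, no filter, a replicate block, left-out libraries, 1 fit of all libraries, DESeq2 1.42.0, limma 3.58.1 on log2 values (also with a pseudocount of 0.1) and the fold limit. Coordinates and sequences are of GRCh38, with GENCODE 44 gene borders.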

Additional observations from a re-analysis of the deposited data

Results flagged for a closer look

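The response to CoCl2 differed between the lines for 17 mitochondrial genes by the interaction test, each larger in HT-29 than in Caco-2 (log2 fold change in HT-29 minus that in Caco-2). For complex I the differences were 0.82 for MT-ND1, 0.70 for MT-ND2, 0.32 for MT-ND3, 0.86 for MT-ND4L, 0.82 for MT-ND4, 0.93 for MT-ND5 and 1.09 for MT-ND6. For complexes III and IV they were 0.59 for MT-CYB, 0.81 for MT-CO1, 0.84 for MT-CO2 and 0.80 for MT-CO3, and for complex V they were 0.67 for MT-ATP8 and 0.96 for MT-ATP6. MT-RNR2 gave 0.27, and the tRNA genes MT-TC, MT-TY and MT-TP gave 0.98, 0.98 and 0.87. The response to OD differed for 5 genes, at 0.49 for MT-RNR2, 0.33 for MT-ND2, -0.41 for MT-ND3, 0.69 for MT-ND4L and 0.59 for MT-ND4. Line and culture state cannot be told apart in these differences.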

How the results depend on the processing

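For CoCl2 against control in Caco-2 (14 genes), limma gave 7 with either pseudocount, and leaving out libraries gave 8 to 14, with 8 without replicate 2 of each group and 9 without control replicate 3 alone. For CoCl2 against OD in Caco-2 (16 genes), library size alone gave 8, limma gave 7 with either pseudocount, and left-out libraries gave 6 to 19. CoCl2 against control in HT-29 (17 genes) gave 10 by library size alone. With the fold limit the counts were 2, 1, 5 and 2 against control (CoCl2 then OD, first Caco-2 and then HT-29), 1 for CoCl2 against OD in Caco-2, 1 and 0 for the line differences in the CoCl2 and OD responses, and 1 between controls. Library size alone turned some signs, listed here where the gene passed under either scaling. With CoCl2 in Caco-2 these were MT-ND1 (-0.21) and MT-CO1 (-0.20). With CoCl2 in HT-29 they were MT-ND2 (-0.022), MT-ATP8 (-0.20), MT-ND3 (-0.56) and MT-CYB (-0.28). For CoCl2 against OD in HT-29 it was MT-RNR2 (-0.37). Across 168 gene and comparison pairs, 169 of 3936 alternative values no longer passed and 46 newly passed. A further 7 turned direction with a pass in the main fit or in the alternative. The other 3714 kept their side of the threshold, and a turn where neither fit passed is counted among these. Some alternatives left out a library of a group outside the comparison. Such a fit can alter only the scaling, the filter and the shared estimate of spread, so the total is no measure of robustness. With nuclear counts as the denominator, the mitochondrial share was 6.97, 5.50 and 4.85% in control, CoCl2 and OD Caco-2 and 7.73, 8.80 and 6.53% in the same groups of HT-29. Without the rRNAs it was 5.80, 4.24 and 3.70% in control, CoCl2 and OD Caco-2 and 6.24, 6.80 and 4.45% in HT-29. The rRNA counts were 12.5, 23.1 and 25.2% of the mRNA counts in the Caco-2 groups and 14.99, 18.98 and 37.6% in those of HT-29. The single-library omissions were chosen after seeing the data. The cause of these changes was not tested.

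Libraries with the same replicate number showed little correlation of their deviations from the group means. It lay between -0.055 and 0.068 in Caco-2 and between -0.037 and 0.025 in HT-29, below 0.1 in all 9 pairs of each line. These values cannot show whether same-numbered cultures were handled together. With the replicate block the counts were 14, 16, 17 and 14 against control (CoCl2 and OD in Caco-2, then in HT-29), 16 and 18 for CoCl2 against OD, 16 and 5 for the line differences and 11 between controls. Depth limits only the tRNA genes.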
